A study of Danio rerio with 12 samples.

Results

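Oxidative phosphorylation genes of zebrafish larvae were taken as every gene whose symbol in the zebrafish gene name table starts, ignoring case, with nduf, sdha to sdhd, uqcr, cox4 to cox8 or atp5, or with mt-nd, mt-co, mt-cyb or mt-atp. The rule found 121 of the 37541 gene identifiers in the files, 29178 of which have a symbol. The mitochondrial genome carries 13 of them, and 108 are nuclear. Of the 108, 38 encode subunits of complex I, 5 of II, 8 of III, 25 of IV and 18 of V. Another 12 are assembly factors of complexes I and II, and 2 are ATP synthase inhibitors. Several copies of 1 subunit, such as 2 of SDHD and 3 of COX5B, count here as separate subunits.

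RNA was sequenced from pools of whole larvae of the AB strain in 4 groups of 3 libraries: ercc2/xpd -/- mutants and their siblings at 7 days post fertilization (dpf), and mutants and siblings at 5 dpf. The labels give the sibling pools as ercc2/xpd+/+ & ercc2/xpd+/-, so wild-type and heterozygous larvae were mixed in them. The mutants carry a CRISPR/Cas9 deletion predicted to truncate Ercc2/Xpd, a helicase of the general transcription and repair factor TFIIH. Nothing in the labels says whether the pools came from separate clutches, and p-values therefore reflect how far these pools vary, which may be technical. Because each pool averages all tissues, fewer cells of a type and less RNA per cell cannot be told apart.

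Values are the FPKM deposited by the authors, that is, fragments scaled to gene length and library size, which allows levels to be compared roughly between genes. The comparison is less sure for very short genes, such as mt-atp8 (165 bases) and NDUFB1 (177 bases). Between 13403615 and 15084280 reads per library could be recovered from the steps of the values. ERCC2 itself lay between 2.56 and 3.57 FPKM in the 6 mutant libraries, against 3.78 to 6.38 FPKM in the 6 sibling libraries, without overlap. A gene was tested if it reached 0.5 FPKM in at least 3 of 12 libraries, which 23648 genes and 114 of the 121 members did (101 nuclear, 13 mitochondrial). Changes are log2 differences of FPKM + 0.5, which understates the change of low genes. A gene was called at an adjusted p under 0.05 in limma, with Benjamini-Hochberg adjustment over all tested genes.

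The respiratory chain lies in the inner mitochondrial membrane. Complexes I (NADH dehydrogenase) and II (succinate dehydrogenase) pass electrons to ubiquinone, complex III passes them to cytochrome c, and complex IV (cytochrome c oxidase) to oxygen. Complexes I, III and IV pump protons, and complex V, the ATP synthase, uses the gradient to make ATP. All complexes but II are built from subunits of both genomes. The heavy strand of the mitochondrial genome is transcribed as long precursors from which RNAs are cut. Their levels thus also depend on how stable each RNA is. Muscle, heart, photoreceptors and ionocytes are known as tissues rich in mitochondria.

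Mitochondrially encoded subunits led the members in level. The 3 MT-CO genes, which encode the catalytic core of cytochrome c oxidase, exceeded every other member in 12 of 12 libraries. MT-CO2 averaged 12186 FPKM over the 12 libraries, MT-CO3 10547 FPKM and MT-CO1 9906 FPKM, and the ranges of these neighbours overlapped. MT-ATP6, a proton channel subunit of the ATP synthase, followed at 5506 FPKM and MT-CYB, the cytochrome b of complex III, at 4393 FPKM. The complex I genes MT-ND1, MT-ND4, MT-ND3, MT-ND2 and mt-nd4l lay between 1632 and 2069 FPKM with overlapping ranges, and MT-ND6 and MT-ND5 at 870 and 865 FPKM. mt-atp8 was listed far lower, at a mean of 106 FPKM, a level that is less sure because the gene has 165 bases. It overlaps MT-ATP6 by 7 bases, as mt-nd4l overlaps MT-ND4 by 7 bases, so the reads of each pair cannot be fully told apart.

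Among nuclear members the most abundant was atp5mc3b in 12 of 12 libraries, a gene for the c subunit of the ATP synthase rotor, with a mean of 1278 FPKM. ATP5F1B, the catalytic beta subunit, averaged 1006 FPKM and overlapped with it. The most abundant nuclear member of complex IV was COX4I1 (593 FPKM), of complex I the accessory subunit NDUFB1 (294 FPKM), of complex III the hinge protein UQCRH (180 FPKM), and of complex II the flavoprotein SDHA (89.3 FPKM). A mean over 100 FPKM was reached by 13 of 18 complex V subunits, 11 of 25 of complex IV, 14 of 38 of complex I, 1 of 8 of complex III, and by no subunit of complex II, no assembly factor and neither inhibitor.

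**Figure D1:**
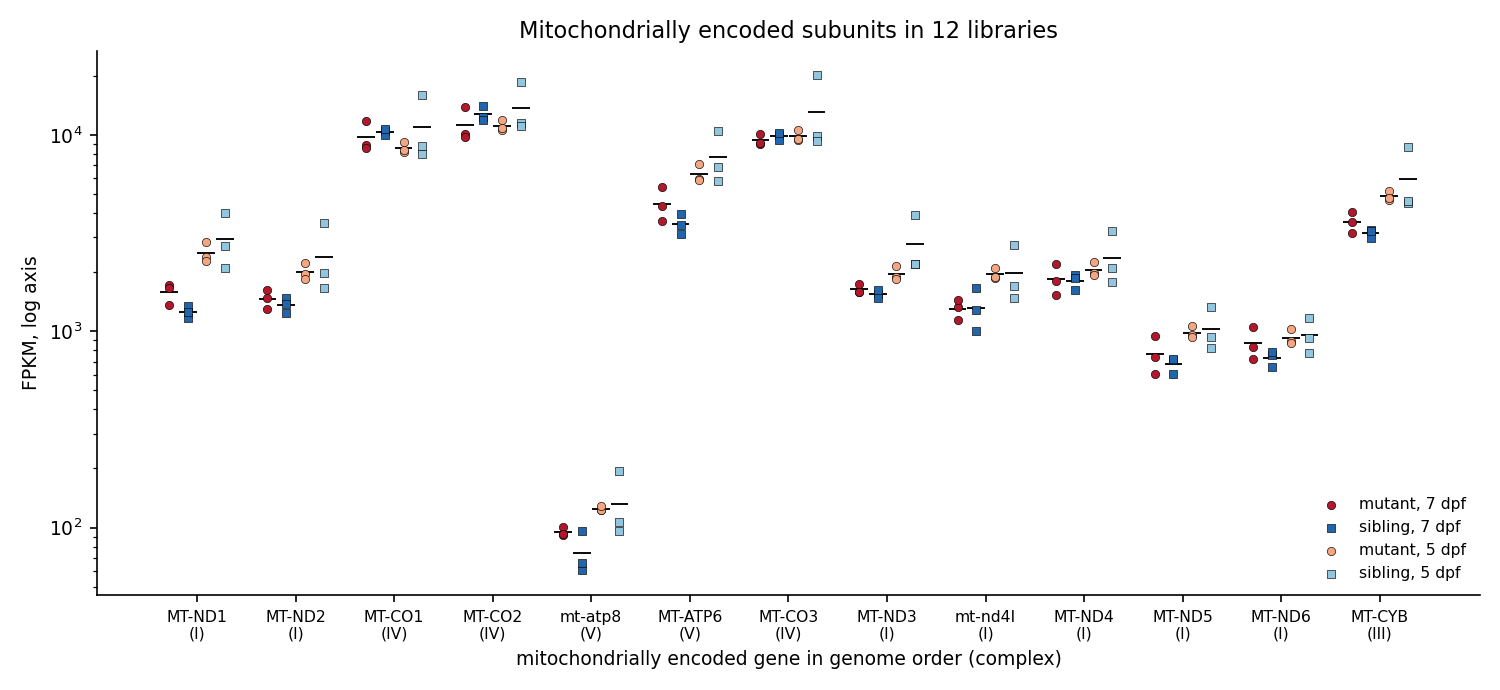
FPKM (log axis) of the 13 mitochondrially encoded genes in genome order, with the complex in brackets, in mutants and siblings at 7 and 5 dpf. Each point is a library and each line a group mean (n = 3). The single high points of siblings at 5 dpf are replicate 2, with a summed 94040 FPKM over the 13 genes.

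Some libraries stood apart in these genes. The 13 mitochondrially encoded genes summed to 94040 FPKM in replicate 2 of siblings at 5 dpf, against 54236 and 49672 FPKM in the other 2 pools of that group and 42456 to 57840 FPKM in the remaining 9 libraries. They took 13.7% of all FPKM in that library. In replicate 1 of mutants at 7 dpf the median nuclear subunit lay 0.23 below the mean of its group on the log2 scale, while in replicate 3 it lay 0.24 above. Cytosolic ribosomal protein genes moved the same way in these 2 pools (-0.32 and 0.36), as did other short, highly expressed genes (-0.12 and 0.17). The part of such library differences in the results was not tested beyond the fits without these libraries.

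**Figure D2:**
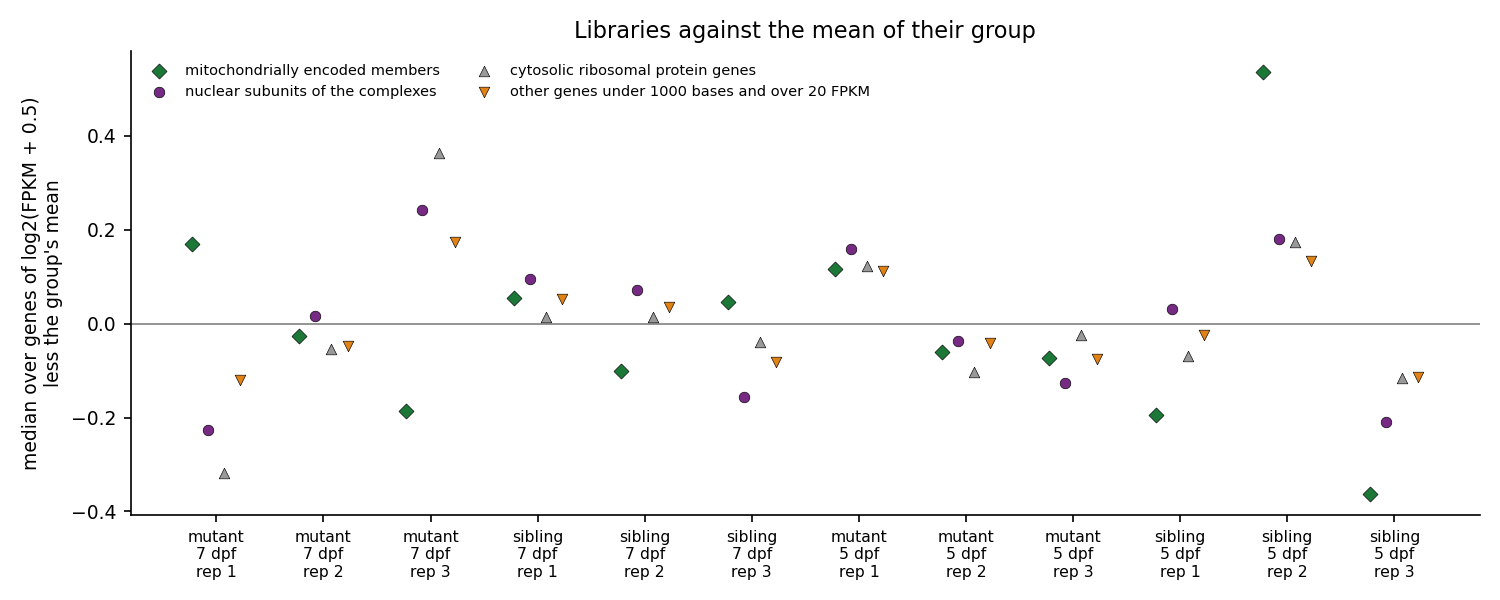
Median over genes of log2(FPKM + 0.5) less the mean of the library's own group, for 4 sets of genes in each library. Mitochondrially encoded genes of sibling replicate 2 at 5 dpf stand 0.54 above their group, and nuclear subunits and cytosolic ribosomal protein genes of mutants at 7 dpf spread between -0.32 and 0.36.

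Few of these genes were called between mutants and siblings at either age. At 7 dpf 1 of 101 nuclear members tested was lower in mutants and 0 were higher, against 3.25% lower and 1.80% higher over all tested genes. At 5 dpf 1 of 101 was lower and 0 were higher, against 2.16% lower and 0.655% higher over all tested genes. At an unadjusted p under 0.05 limma gave 12 of 101 nuclear members at 7 dpf, beside 4629 of 23648 tested genes. At 5 dpf it gave 3 of 101, beside 3430 of 23648 tested genes. Of the 13 mitochondrially encoded genes 0 passed at either age, with 0 at an unadjusted p under 0.05. The median log2 change of nuclear members was 0.11 at 7 dpf and -0.02 at 5 dpf, beside 0.01 and 0.02 over all genes. The median of the mitochondrially encoded genes was 0.10 at 7 dpf and -0.18 at 5 dpf, and without sibling replicate 2 at 5 dpf the median at that age was 0.09, and -0.40 without sibling replicate 3.

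The member called at both ages was cox7a1 (ENSDARG00000069464; chromosome 15, 20403084 to 20405796 on the plus strand of GRCz11), an isoform of a small subunit of cytochrome c oxidase that in mammals is typical of heart and skeletal muscle. At 7 dpf it had 0.93, 1.15 and 0.85 FPKM in mutants, against 3.59, 3.96 and 1.55 FPKM in siblings. At 5 dpf it had 0.54, 0.53 and 1.25 FPKM in mutants, against 3.61, 2.50 and 3.44 FPKM in siblings. The mutant pools lay below the sibling pools at both ages without overlap. The log2 change was -1.19 (SE 0.30, adjusted p = 0.0389) at 7 dpf and -1.57 (SE 0.30, adjusted p = 0.0126) at 5 dpf in limma, and the difference between the ages did not pass (0.38, SE 0.42, adjusted p = 0.79).

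These levels rest on few reads, 8 to 20 per library in mutants and 19 to 53 in siblings. Over the alternative settings the adjusted p of cox7a1 in limma ranged between 0.00707 and 0.151 at 7 dpf, where 11 of 26 kept the call, and between 0.00361 and 0.0689 at 5 dpf, where 23 of 26 did. At 5 dpf the call was lost without mutant replicate 1 (adjusted p = 0.0689) or replicate 2 (0.0588) and with voom, a count-based form of limma, on the recovered reads (0.0518). At 7 dpf it was lost without sibling replicate 1 (0.136) or 2 (0.151), without any single mutant pool at that age (0.0819 to 0.0972), without sibling replicate 1 (0.0502) or 3 (0.0509) at 5 dpf and with a replicate block over both ages (0.0645). The 7 dpf call was also lost with voom, with no filter and with only the groups compared. Rescaling to a fixed sum per library (TPM), to total reads or to the sum outside the mitochondrial genome ended it too. So did leaving out sibling replicate 2 at 5 dpf and mutant replicate 1 at 7 dpf together.

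The other cox7a genes carry most of the RNA of this subunit. COX7A2 on chromosome 17 (ENSDARG00000053217) held 65.6% ± 3.4 of the summed FPKM of the 4 genes in mutants at 7 dpf, against 66.8% ± 5.9 in siblings, and 75.0% ± 1.7 in mutants at 5 dpf, against 72.2% ± 2.1 in siblings (SD, n = 3 each). cox7a1 held 0.52% ± 0.12 in mutants and 1.88% ± 0.68 in siblings of 7 dpf, and 0.26% ± 0.16 in mutants and 0.94% ± 0.27 in siblings of 5 dpf. As deposited, neither COX7A2 copy was called between mutants and siblings (adjusted p of 0.25 to 0.87). At 7 dpf the copy on chromosome 20 was called higher in mutants under TPM, total reads, scaling to the sum outside the mitochondrial genome and without sibling replicate 1 at that age (log2 changes of 0.60 to 0.66), and the copy on chromosome 17 under scaling outside the mitochondrial genome (0.47). Summed over 11 genes, fast muscle markers had 41878 to 63529 FPKM in mutants at 7 dpf, against 46640 to 57957 FPKM in siblings, and 48302 to 56541 FPKM in mutants at 5 dpf, against 46325 to 79357 FPKM in siblings, with overlap at both ages. The 7 slow muscle markers summed to 241 to 354 FPKM in mutants at 7 dpf, against 273 to 366 FPKM in siblings, and to 346 to 386 FPKM in mutants at 5 dpf, against 294 to 358 FPKM in siblings, again with overlap. Of these 7, 1 was called higher in mutants at 7 dpf (median -0.16), against 1.80% of all tested genes. At 5 dpf 0 were, but 7 of 7 lay above 0 (median 0.48). Of them 4 had an unadjusted p under 0.05 in limma, beside 3430 of 23648 tested genes. The 10 heart markers summed to 82.2 to 108 FPKM in mutants at 7 dpf, against 73.5 to 88.7 FPKM in siblings, and to 102 to 120 FPKM in mutants at 5 dpf, against 71.3 to 89.8 FPKM in siblings, higher without overlap at the younger age. There 2 of 10 were called higher (median 0.58), against 0.655% of all tested genes.

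**Figure D3:**
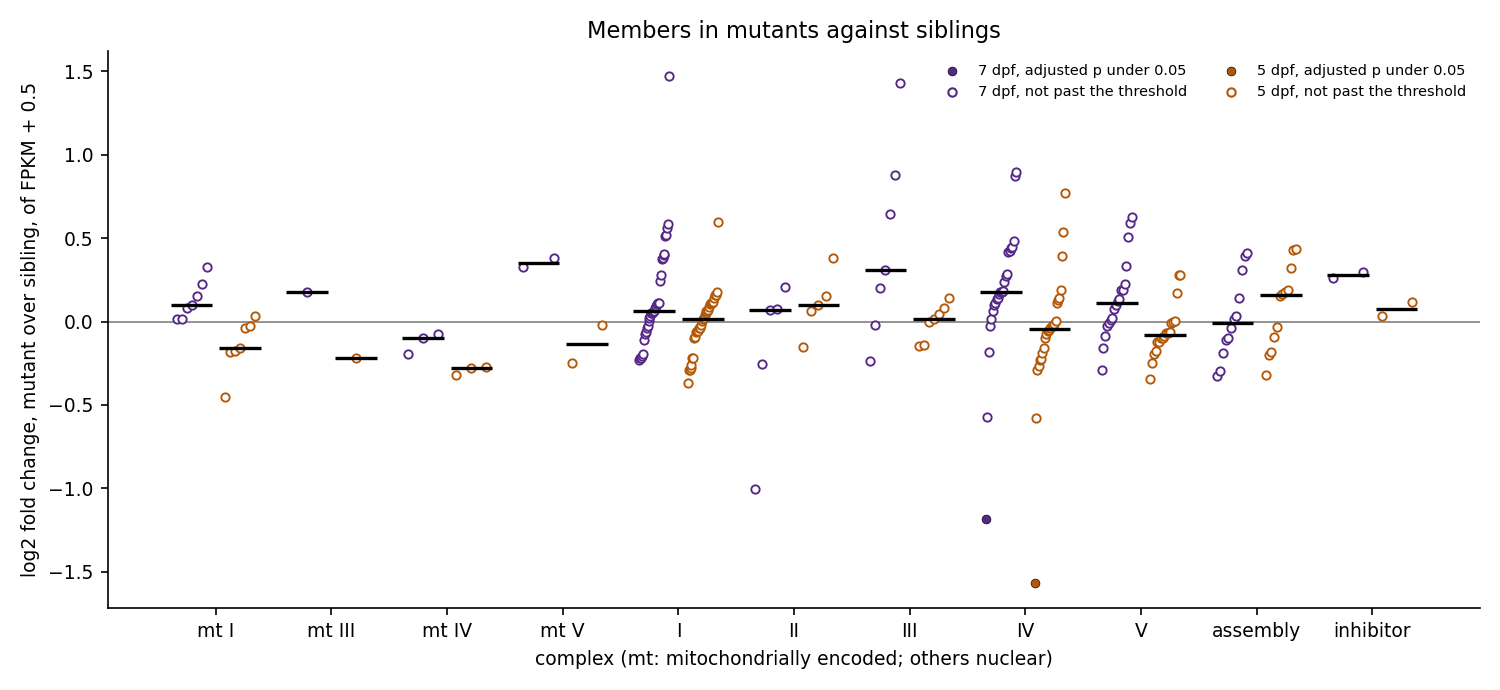
Log2 fold change of FPKM + 0.5, mutants over siblings, of the 114 tested members by complex, at 7 dpf (left in each pair) and 5 dpf. Points are genes, filled where the adjusted p was under 0.05, and lines are medians. The 2 filled points are cox7a1.

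At 7 dpf the nuclear members nearest to a call lay above siblings. UQCRQ (ENSDARG00000029064), a small subunit of complex III, had 9.44, 4.18 and 4.86 FPKM in mutants at 7 dpf, against 1.43, 2.20 and 1.95 FPKM in siblings, without overlap (log2 change 1.43, SE 0.38, adjusted p = 0.0508 in limma). Its level at 5 dpf was 12.4, 4.22 and 5.66 FPKM in mutants, against 10.1, 5.36 and 5.57 FPKM in siblings, with overlapping groups. UQCR10, another small subunit of the same complex, had 23.9, 49.8 and 52.5 FPKM in mutants at 7 dpf, against 23.1, 23.1 and 18.4 FPKM in siblings (0.88, SE 0.27, adjusted p = 0.0899). The first mutant pool lay close to the siblings and the other 2 well above them. UQCRC1, a core protein of complex III chosen after its values were seen, gave a log2 change of 0.65 (SE 0.20, adjusted p = 0.0894). In complex III as a whole the median of the 7 tested subunits was 0.31 at 7 dpf and 0.01 at 5 dpf, with 0 of 7 called at either age.

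How many members pass at 7 dpf depends on how the libraries are scaled. The deposited values followed the median of ratios between libraries, and rescaling to a fixed sum per library (TPM) shifted the median of all genes by 0.17 at 7 dpf and 0.16 at 5 dpf. Under TPM 14 of 101 nuclear members (13.9%) were higher in mutants at 7 dpf, against 5.72% of all tested genes. Scaled to the sum of all genes outside the mitochondrial genome, 19 (18.8%) were, against 6.74% of all tested genes. Total reads gave 11 (10.9%), against 5.41% of all tested genes, and voom 7 (6.93%), against 4.51%. Over all genes TPM gave 1355 higher and 501 lower, against 426 higher and 768 lower as deposited. Relative to the median of all genes the nuclear members stood at 0.14 under TPM and 0.10 as deposited. Without mutant replicate 1 at 7 dpf 5 nuclear members were called higher, against 1.71% of all tested genes (ATP5MG, UQCRC1, ndufc2, UQCR10 and cox7b), with log2 changes between 0.73 and 1.24. Leaving out sibling replicate 2 at 5 dpf as well gave 7, against 2.04% of all tested genes. The count was 2 without sibling replicate 1 at 5 dpf, and 1 without sibling replicate 2 or mutant replicate 1 or 2 at 5 dpf or sibling replicate 1 at 7 dpf.

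With age most nuclear members lay lower at 7 than at 5 dpf in both genotypes. In mutants 29 of 101 fell and 1 rose, or 28.7% that fell against 6.06% of all tested genes, of which 5.36% rose. In siblings 43 of 101 fell and 0 rose, or 42.6% that fell against 13.0% of all tested genes, of which 12.3% rose. Below 0 lay 85 of 101 in mutants and 91 of 101 in siblings, with a median log2 change of -0.44 in mutants and -0.54 in siblings, beside -0.00 and 0.01 over all genes. These age comparisons share no library with each other, but 1 model gave both the same estimate of each gene's spread. A gene with a small spread is thus more easily called in both, and the overlap over all tested genes was not counted. Each of them shares its 7 dpf pools with the comparison of genotypes at 7 dpf, and its 5 dpf pools with that at 5 dpf. Both lists held 24 genes, which is 82.8% of the genes that fell in mutants and 55.8% of those that fell in siblings. Across the 101 genes the changes had a Pearson correlation of 0.69 and a Spearman correlation of 0.69, given as a description because genes of a library share its depth.

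Other genes with high levels or short transcripts are given for scale. Of 2328 other genes with a mean over 20 FPKM, 11.7% fell and 15.5% rose in mutants, and 19.8% fell and 25.8% rose in siblings. Of 406 other genes under 1000 bases and over 20 FPKM the median was -0.05 in mutants and -0.12 in siblings. Nuclear members under 1000 bases had a median of -0.52 in mutants and -0.56 in siblings, and longer ones -0.38 in mutants and -0.48 in siblings. Mitochondrial ribosomal protein genes had a median of -0.19 in mutants and -0.24 in siblings, and cytosolic ones 0.21 in mutants and 0.18 in siblings.

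By complex, 4 of 7 tested complex III subunits fell in mutants, 12 of 33 of complex I, 3 of 18 of complex V, 7 of 24 of complex IV, 0 of 5 of complex II and 3 of 12 assembly factors. In siblings 5 of 7 complex III subunits fell, 18 of 33 of complex I, 8 of 18 of complex V, 9 of 24 of complex IV, 1 of 5 of complex II and 2 of 12 assembly factors. Neither ATP synthase inhibitor was called in either genotype. Beside these counts, 6.06% of all tested genes fell in mutants and 13.0% in siblings. In siblings the shares of assembly factors (16.7%) and complex II (20%) lay near that of all tested genes. The median in complex III was -0.63 in mutants and -0.96 in siblings, and in complex I it was -0.52 in mutants and -0.58 in siblings. Complex V had -0.40 in mutants and -0.54 in siblings, and complex IV -0.36 in mutants and -0.55 in siblings. Complex II had -0.34 in mutants and -0.03 in siblings, and assembly factors -0.29 in mutants and -0.09 in siblings.

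**Figure D4:**
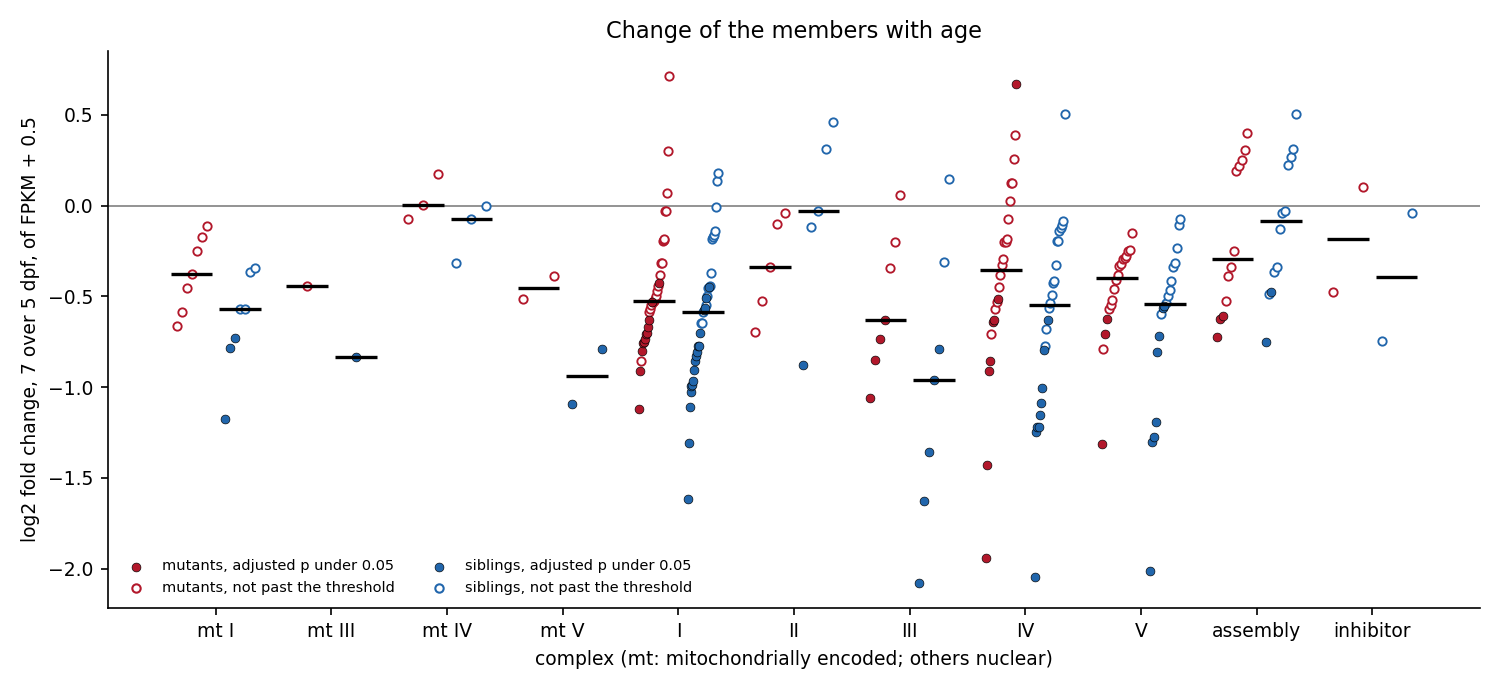
Log2 fold change of FPKM + 0.5, 7 over 5 dpf, of the 114 tested members by complex and genome, in mutants (left in each pair) and siblings. Points are genes, filled where the adjusted p was under 0.05, and lines are medians. The medians of nuclear complexes I, III, IV and V lie between -0.96 and -0.36, and those of the mitochondrially encoded complex IV genes near 0.

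The genes named with the largest falls encode small subunits. UQCR10 (ENSDARG00000104517; chromosome 21, 5882300 to 5885723, plus strand) had 23.9, 49.8 and 52.5 FPKM in mutants at 7 dpf, against 102, 82.0 and 69.4 FPKM at 5 dpf (log2 change -1.06, SE 0.27, adjusted p = 0.0268). In siblings it had 23.1, 23.1 and 18.4 FPKM at 7 dpf, against 90.5, 113 and 75.9 FPKM at 5 dpf (-2.08, SE 0.27, adjusted p = 0.000257). The age groups did not overlap in either genotype. In mutants the UQCR10 call was lost without mutant replicate 1 (adjusted p = 0.108) or 2 (0.0749) at 5 dpf, without mutant replicate 1 at 7 dpf (0.0572; log2 change -0.70) and with only the groups compared (0.0768), and in siblings it held in all 25 alternatives. UQCRQ was not called in mutants (-0.20, SE 0.38, adjusted p = 0.80) and fell in siblings (-1.63, SE 0.38, adjusted p = 0.00825), and the difference between these changes did not pass (1.43, SE 0.54, adjusted p = 0.38).

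ndufc2, a small accessory subunit in the membrane arm of complex I, had 39.6, 86.1 and 95.9 FPKM in mutants at 7 dpf, against 183, 141 and 133 FPKM at 5 dpf (-1.12, SE 0.28, adjusted p = 0.0257). In siblings it averaged 46.1 ± 5.4 FPKM at 7 dpf, against 143 ± 26.9 FPKM at 5 dpf (SD, n = 3 each), a log2 change of -1.62 (SE 0.28, adjusted p = 0.00164). In mutants the ndufc2 call was lost without mutant replicate 1 (adjusted p = 0.103) or 2 (0.0647) at 5 dpf and with only the groups compared (0.0779). ndufa4b, a second copy of the complex IV subunit NDUFA4, was low and passed the test in both genotypes, in mutants in 19 of 25 alternatives. It had 1.54, 7.39 and 5.28 FPKM in mutants at 7 dpf, against 17.1 ± 3.03 FPKM at 5 dpf (SD, n = 3), a log2 change of -1.94 (SE 0.51, adjusted p = 0.0301). In siblings it had 0.97, 1.32 and 5.15 FPKM at 7 dpf, against 7.95, 9.96 and 11.6 FPKM at 5 dpf (-2.05, SE 0.51, adjusted p = 0.0118). In mutants the call was lost without replicate 1 (adjusted p = 0.0860), 2 (0.0645) or 3 (0.0802) at 5 dpf, without replicate 1 at 7 dpf (0.0918; log2 change -1.37), without that pool and sibling replicate 2 at 5 dpf together (0.104), and with no filter (0.0534). NDUFA4 itself, with group means between 106 and 124 FPKM, was not called (-0.20 in each genotype).

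In complex IV cox4i1l, a low copy of the COX4 subunit, had 2.03, 3.02 and 1.69 FPKM in mutants at 7 dpf, against 8.15, 5.95 and 6.33 FPKM at 5 dpf (-1.43, SE 0.26, adjusted p = 0.00477). It fell in siblings as well (-1.09, SE 0.26, adjusted p = 0.00889). COX4I2, the other COX4 isoform, known in mammals from lung and from cells in low oxygen, was the nuclear member that rose with age in mutants. It had 23.8, 28.7 and 32.7 FPKM in mutants at 7 dpf, against 17.1, 16.2 and 19.3 FPKM at 5 dpf, without overlap (0.67, SE 0.17, adjusted p = 0.0227). In siblings it had 22.1, 22.3 and 24.7 FPKM at 7 dpf, against 20.7, 29.0 and 30.7 FPKM at 5 dpf, with overlap (-0.19, SE 0.17, adjusted p = 0.43). The difference between the genotypes did not pass (0.86, SE 0.23, adjusted p = 0.25). The rise was not called without mutant replicate 1 (adjusted p = 0.0745) or 2 (0.0890) at 5 dpf, or without mutant replicate 2 (0.0616) or 3 (0.0737) at 7 dpf. At 5 dpf COX4I2 was called lower in mutants only without sibling replicate 1 (-0.75, adjusted p = 0.0291) and with the replicate block over both ages (-0.58, adjusted p = 0.0488), among the settings tried.

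The genes of the c subunit, which forms the rotating ring of the ATP synthase, are 3 in number. atp5mc1 (ENSDARG00000056008; chromosome 3, 23599290 to 23604396, minus strand) had 132, 150 and 145 FPKM in mutants at 7 dpf, against 412, 348 and 308 FPKM at 5 dpf (-1.31, SE 0.22, adjusted p = 0.0034). In siblings it had 97.1, 89.7 and 88.2 FPKM at 7 dpf, against 368, 539 and 258 FPKM at 5 dpf (-2.01, SE 0.22, adjusted p = 8.43e-05). The ages did not overlap in either genotype. The most abundant copy, atp5mc3b, averaged 1102 FPKM in mutants and 1334 FPKM in siblings of 7 dpf, and 1210 FPKM in mutants and 1464 FPKM in siblings of 5 dpf, and was not called with age (-0.15 in mutants, -0.11 in siblings).

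The share of atp5mc1 among the 3 c-subunit genes, which does not depend on library scaling, was 11.0% ± 1.3 in mutants and 6.21% ± 0.29 in siblings of 7 dpf, and 21.4% ± 1.8 in mutants and 19.9% ± 3.6 in siblings of 5 dpf (SD, n = 3 each). The 2 ages did not overlap, and at 7 dpf the mutants (9.56% to 11.9%) lay above the siblings (5.88% to 6.41%). UQCRC2 and uqcrc2a, 2 genes for a core protein of complex III that were chosen after their values were seen, showed the same order. UQCRC2 held 45.1% ± 2.7 of the pair in mutants and 37.7% ± 1.9 in siblings of 7 dpf, and 57.0% ± 2.7 in mutants and 53.7% ± 4.6 in siblings of 5 dpf. Other families of copies did not all show this order. The share of cox6b1 beside cox6b2 was 13.8% in mutants and 11.1% in siblings of 7 dpf. At 5 dpf it was 11.4% in mutants and 11.8% in siblings. With 3 pools against 3, an exact permutation test could not go below a p of 0.10, so these shares are given without a test.

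Most mitochondrially encoded genes also lay lower at 7 dpf (11 of 13 in mutants and 13 of 13 in siblings), but not evenly along the genome. In mutants 0 of 13 passed in limma, where 6.06% of all tested genes fell. At an unadjusted p under 0.05 limma gave 2 of 13, beside 6183 of 23648 tested genes. With voom on the recovered reads 2 of 13 fell, beside 1796 of 23648 tested genes. The largest decreases in mutants were -0.66 for MT-ND1 (adjusted p = 0.0779), -0.58 for mt-nd4l and -0.52 for MT-ATP6. The 3 MT-CO genes summed to 30345 ± 4688 FPKM in mutants at 7 dpf and 29503 ± 1955 FPKM at 5 dpf (SD, n = 3 each). In siblings 6 of 13 fell, against 13.0% of all tested genes: MT-ND1 (-1.17, SE 0.22, adjusted p = 0.00267), MT-ATP6 (-1.09, SE 0.25, adjusted p = 0.00722), MT-CYB (-0.84, adjusted p = 0.0261), MT-ND3 (-0.79, adjusted p = 0.0186), mt-atp8 (-0.79, adjusted p = 0.0295) and MT-ND2 (-0.73, adjusted p = 0.0468). The complex IV genes did not pass in siblings, with -0.00 for MT-CO1, -0.08 for MT-CO2 and -0.32 for MT-CO3. Nor did MT-ND4 (-0.35), MT-ND5 (-0.57), mt-nd4l (-0.57) or MT-ND6 (-0.36), the only one of the 13 on the minus strand.

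The counts changed with single pools. The number that fell in siblings was 3 without sibling replicate 2 at 5 dpf, and 3, 2 and 3 without sibling replicate 1, 2 or 3 at 7 dpf. In siblings MT-ND1 was called in each of the 25 alternatives that bear on it. MT-ND1 had 1720, 1657 and 1363 FPKM in mutants at 7 dpf, against 2859, 2387 and 2267 FPKM at 5 dpf. In siblings it had 1345, 1171 and 1255 FPKM at 7 dpf, against 2704, 3992 and 2103 FPKM at 5 dpf. The ages did not overlap in either genotype. Without sibling replicate 2 at 5 dpf and mutant replicate 1 at 7 dpf together, 4 of 13 fell in mutants, and without sibling replicate 2 or 3 at 5 dpf 1 did. For these fits the counts over all genes are not given here, so a change particular to these 13 genes is not shown.

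Ratios within a library take out its depth and scaling, and were formed to MT-CO1 for a few genes after their values were seen. In siblings MT-CO1 did not pass with age, while MT-ATP6, MT-CYB and MT-ND1 fell. Their lower ratios at 7 dpf thus follow in part from this choice, and all the ratios share 1 denominator. MT-ATP6 over MT-CO1 was 0.461, 0.486 and 0.422 in mutants at 7 dpf, against 0.334, 0.314 and 0.370 in siblings. At 5 dpf it was 0.774, 0.726 and 0.705 in mutants, against 0.777, 0.655 and 0.733 in siblings. The ratio was thus lower in all 6 pools at 7 dpf than in any at 5 dpf, sibling replicate 2 included, and at 7 dpf it was higher in mutants without overlap. MT-CYB over MT-CO1 was 0.371 ± 0.033 in mutants and 0.306 ± 0.009 in siblings of 7 dpf, and 0.568 ± 0.005 in mutants and 0.545 ± 0.033 in siblings of 5 dpf. MT-ND1 over MT-CO1 was 0.164 ± 0.021 in mutants and 0.121 ± 0.007 in siblings of 7 dpf, and 0.291 ± 0.019 in mutants and 0.274 ± 0.030 in siblings of 5 dpf (SD, n = 3 each). MT-ND6 over MT-CO1 was 0.0891, 0.0932 and 0.0836 in mutants at 7 dpf, against 0.0728, 0.0662 and 0.0729 in siblings, and 0.111, 0.108 and 0.105 in mutants at 5 dpf, against 0.104, 0.0730 and 0.0977 in siblings. This ratio was higher in mutants without overlap at both ages, and sibling replicate 2 at 5 dpf (0.0730) lay below the mutants at 7 dpf and level with the highest sibling of that age. MT-CO2 over MT-CO1 was 1.18, 1.13 and 1.13 in mutants at 7 dpf, against 1.29, 1.28 and 1.29 at 5 dpf, lower without overlap. In siblings it was 1.18, 1.19 and 1.31 at 7 dpf, against 1.31, 1.16 and 1.39 at 5 dpf, with overlap.

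**Figure D5:**
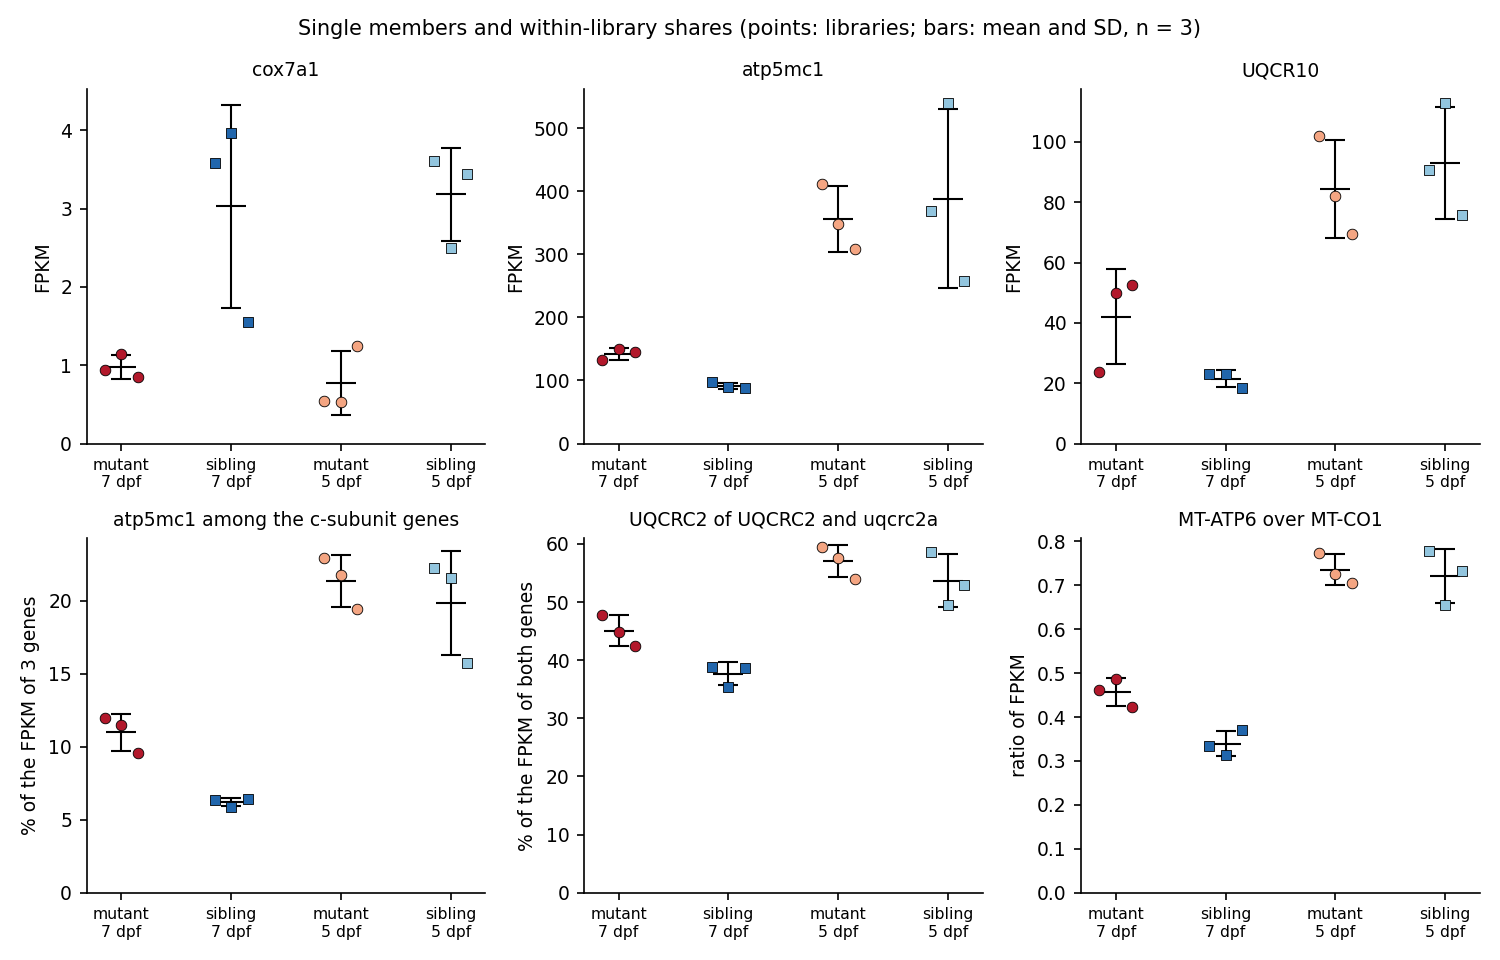
FPKM of cox7a1, atp5mc1 and UQCR10 (upper row), and atp5mc1 as a percentage of the 3 c-subunit genes, UQCRC2 as a percentage of UQCRC2 and uqcrc2a, and the ratio of MT-ATP6 to MT-CO1 (lower row). Points are libraries, bars mean and SD (n = 3). The mutants at 7 dpf lie between the siblings at 7 dpf and both groups at 5 dpf in the lower row, with atp5mc1 shares of 11.0%, 6.21%, 21.4% and 19.9% from left to right. The UQCRC2 share and the ratio were chosen after their values were seen, and other families of copies did not all show this order.

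Whether mutants and siblings changed differently with age was tested as the difference of the mutant effect, 7 minus 5 dpf. It gave 0 of 101 nuclear and 0 of 13 mitochondrially encoded members, and 0% of all tested genes. At an unadjusted p under 0.05 limma gave 7 nuclear members and 2455 genes in all, and voom gave 0 members after adjustment. The median difference was 0.16 for nuclear and 0.25 for mitochondrially encoded members, and the median of the mitochondrially encoded ones was -0.01 without sibling replicate 2 at 5 dpf. The changes behind the 29 nuclear members that fell in mutants and the 43 in siblings are thus not shown to differ. The count in mutants was 5 without mutant replicate 1 at 5 dpf, 12 without replicate 2, and 14 and 17 without mutant replicate 1 or 2 at 7 dpf. In siblings it stayed between 30 and 52 without any one library, and there 30 of the 43 genes were called in all 25 alternatives. In mutants 5 of the 30 called genes were. Counts over all genes for the fits without a library are not given here, so a loss of calls particular to the members is not shown.

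Summed over genes, the 94 nuclear subunits of the 5 complexes took 2.21% ± 0.27 of all FPKM in mutants and 1.78% ± 0.09 in siblings of 7 dpf, and 3.03% ± 0.15 in mutants and 2.76% ± 0.15 in siblings of 5 dpf. The mitochondrially encoded genes took 9.44% ± 2.2 in mutants and 8.12% ± 0.70 in siblings of 7 dpf, and 10.6% ± 0.16 in mutants and 11.1% ± 2.2 in siblings of 5 dpf (SD, n = 3 each). Summed FPKM of mitochondrially encoded over nuclear subunits was 6.15, 3.95 and 3.07 in mutants at 7 dpf, against 4.37, 4.09 and 5.31 in siblings, and 3.37, 3.42 and 3.66 in mutants at 5 dpf, against 3.46, 4.95 and 3.67 in siblings. This ratio overlapped between the genotypes at each age, while the share of nuclear subunits was higher in mutants without overlap at 7 dpf (1.91% to 2.40%, against 1.67% to 1.84% in siblings) and overlapped at 5 dpf. The summed FPKM of these subunits did overlap at 7 dpf, with 9096 to 13834 FPKM in mutants and 9569 to 11218 FPKM in siblings. The sum of all FPKM, by which the share is divided, was 477291 to 577065 in mutants and 571828 to 612894 in siblings of that age.

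Other genes of mitochondrial energy metabolism were read from lists. Of 8 electron carriers tested 2 fell with age in each genotype: cycsb, a cytochrome c gene (157 FPKM in mutants at 7 dpf and 397 FPKM at 5 dpf, log2 change -1.36; 97.4 FPKM in siblings at 7 dpf and 325 FPKM at 5 dpf, -1.74), and ETFDH, which feeds electrons of fatty acid oxidation to ubiquinone. Of 35 assembly factors outside the rule 2 were higher in mutants at 7 dpf, against 1.80% of all tested genes: ACAD9, needed for complex I assembly (6.56 FPKM in mutants, 3.30 FPKM in siblings, log2 change 0.90, adjusted p = 0.00605), and COX10, needed for heme A (3.37 FPKM in mutants, 1.07 FPKM in siblings, 1.31, adjusted p = 0.0246). With age 2 of these 35 fell and 1 rose in mutants, and 8 fell and 1 rose in siblings. Beside these counts with age, 6.06% of all tested genes fell and 5.36% rose in mutants, and 13.0% fell and 12.3% rose in siblings.

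Regulators of mitochondrial transcription moved both ways with age, with 2 of 22 lower and 4 higher in mutants (median -0.06), and 3 lower and 6 higher in siblings (median 0.14). ESRRA, a nuclear receptor that activates respiratory genes, fell in mutants (-0.79) and in siblings (-1.01). GABPB1, a subunit of the activator GABP, rose in mutants (1.42) and in siblings (1.65), and so did mterf3, a negative regulator of mitochondrial transcription in mammals (1.14 in mutants, 1.32 in siblings). Beside the following counts, 3.25% of all tested genes were lower in mutants at 7 dpf. Of 22 genes of the tricarboxylic acid cycle, 1 was lower in mutants at 7 dpf (DLST, of the 2-oxoglutarate dehydrogenase complex, 103 FPKM in mutants and 156 FPKM in siblings; -0.60, adjusted p = 0.0388). Of the 13 coenzyme Q genes 1 was lower at 7 dpf (COQ8A, 45.5 FPKM in mutants and 66.7 FPKM in siblings; -0.56, adjusted p = 0.0433), and of 32 genes of the outer membrane and import 2 were (TOMM20, -0.49, and the barely detected TIMM50, -1.21). At 7 dpf 0 genes of these lists were higher in mutants, and the medians were -0.20 for the tricarboxylic acid cycle, 0.10 for coenzyme Q and 0.16 for the outer membrane and import, where 19 of 32 lay above 0. With age 1 gene of the cycle fell and 1 rose in mutants, against 5 and 1 in siblings. For coenzyme Q 2 fell and 1 rose in mutants, against 4 and 1 in siblings, and for the outer membrane and import 4 fell and 4 rose in mutants, against 9 and 4 in siblings. Over all tested genes 6.06% fell and 5.36% rose in mutants, and 13.0% and 12.3% in siblings. Calls of list genes were read from the main fit alone. Over all genes, calls lower in mutants at 7 dpf numbered 768 as deposited and 501 under TPM.

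Exocrine pancreas markers were lower in mutants for 7 of 7 tested genes at both ages (medians -5.12 at 7 dpf and -4.52 at 5 dpf), enterocyte markers for 7 of 8 at 7 dpf and 6 of 8 at 5 dpf, and hepatocyte markers for 7 of 7 at 7 dpf and 2 of 7 at 5 dpf. Photoreceptor markers fell with age for 0 of 11 genes in mutants (median -0.17) and for 9 of 11 in siblings (-2.41). Tested against each other in limma, these changes passed for 0 of 11 genes. An unadjusted p under 0.05 was reached by 9, beside 2455 of 23648 tested genes. Over all tested genes 6.06% fell with age in mutants and 13.0% in siblings. Of the 11 photoreceptor markers, 11 lay below siblings in mutants at 5 dpf (median -1.08), with 1 called. At 7 dpf 11 lay above siblings (0.93), with 1 called. Of 10 neuron markers 9 lay below siblings at 5 dpf (-0.54) and 8 above at 7 dpf (0.41), with 0 called. Ionocyte markers stayed within 103 to 126 FPKM in mutants and 118 to 142 FPKM in siblings of 7 dpf, and 121 to 173 FPKM in mutants and 131 to 153 FPKM in siblings of 5 dpf, summed over 6 genes. With age the median change of fast muscle markers was 0.25 in mutants and 0.16 in siblings. That of slow muscle markers was -0.46 in mutants, where 2 of 7 fell and 0 rose, and 0.18 in siblings, where 1 fell and 3 rose, and that of heart markers -0.26 in mutants and 0.17 in siblings. The part of these cell types in the members' changes was not tested.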

How the data were processed

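The authors had the RNA-seq reads mapped to GRCz11, normalized and converted to FPKM; the deposited tables give 1 FPKM value per gene and library, with a gene length. HISAT2 2.0.5 is the tool that the notes of the submitters list. No source read here gives the counter, its strand setting or the annotation release, so near-identical copies and overlapping genes may share reads. All 12 value columns were matched to a labelled library (0 unmatched). Low FPKM values are whole multiples of 1 read within 0.01, which gave the recovered reads; intervals were not formed from them. The library term of the FPKM differed from the recovered totals by a factor of 0.881 to 1.13.

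Genes that reached 0.5 FPKM in 3 or more libraries were fitted on log2(FPKM + 0.5) by limma 3.58.1 in R 4.3.3 with 1 model of 4 groups, 8 residual degrees of freedom and a variance trend. The step was tested on simulated data. Members, lists and comparisons were chosen with earlier results of these data known.

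Genes are named by rule: all mitochondrially encoded members, called nuclear members with the largest change (up to 8 each way between genotypes, 4 each way with age), the most abundant nuclear member of each complex, and isoform partners of a called member. The other members named were picked with their values in view, including UQCRC1, UQCRC2, uqcrc2a, ATP5F1B, cox7b, ATP5MG and the pathway examples.

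Same-numbered pools were checked for pairing by the correlation of their deviations from the group means. The 5 dpf pairs gave r of 0.272, 0.129 and 0.217. The 7 dpf pairs gave 0.054, 0.087 and -0.023, and mutant replicate 1 with sibling replicate 3 gave 0.062. A pairing by number is thus possible at 5 dpf but not established. The source is these values alone, and the main fit used no pairing. Of the alternatives, 22 were set at the start and 4 were added after seeing the data (a replicate block within each age, total reads, voom, and leaving out both pools that stand apart). A promoter motif search was not run because no promoter sequences were at hand.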

Additional observations from a re-analysis of the deposited data

How the results depend on the processing

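No result with a call changed sign. Lower in mutants at 5 dpf was 1 nuclear member, 2 with the replicate block, 0 with voom and 0 to 2 without any one library. Lower at 7 dpf was 1, and 0 with no filter, TPM, scaling outside the mitochondrial genome, only the groups compared, the replicate block, total reads, voom, and without both pools that stand apart, with 0 to 1 without any one library. Higher at 7 dpf were 0 nuclear members, but 1 with a pseudocount of 0.1, a filter at 1 FPKM, the replicate block or the block within each age (UQCRQ each time), 2 with only the groups compared, 3 with library weights, 14 with TPM, 19 scaled outside the mitochondrial genome, 11 with total reads, 7 with voom, 7 without both pools, and 0 to 5 without any one library. These scalings moved the median of all genes by 0.15 (total reads) to 0.19 (voom) at 7 dpf; a cause of the other changes was not tested.

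With age, 29 nuclear members fell in mutants, and 15 with only the groups compared, 47 with total reads, 46 with voom, 19 without both pools, and 5 to 36 without any one library; 1 rose, and 0 to 1 without any one library. In siblings 43 fell, and 66 with total reads, 30 to 52 without any one library; 0 rose, and 0 to 1 without any one library. Over all genes 1432 fell in mutants as deposited, 1816 with total reads and 1796 with voom. In siblings 3080 of all genes fell as deposited and 3801 with total reads. For fits with other filters, weights, groups or libraries the counts over all genes are not given here. Of the mitochondrially encoded genes 0 fell in mutants, and 1 with TPM, scaling outside the mitochondrial genome or library weights, 2 with total reads, 2 with voom, 4 without both pools, and 0 to 1 without any one library. In siblings 6 fell, 2 with no filter, 2 with only the groups compared, and 2 to 7 without any one library. Over all genes, the part of calls that were higher in mutants at 7 dpf was 35.7% as deposited, 73.0% with TPM and 70.3% with total reads, and at 5 dpf 23.3%, 47.2% and 38.2%. Rising genes made up 47.0% of the calls with age in mutants as deposited, 40.2% with TPM and 34.7% with total reads, and in siblings 48.6%, 40.1% and 32.5%. The replicate block over both ages ended 6 of the 81 calls of single members, and the block within each age, which gives no value between ages, ended none of the 2 calls of cox7a1. With 3 pools a group, a gene that was not called is not shown to be unchanged.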

Other observations

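7 nuclear members were listed at or near 0, none above 0.517 FPKM in any library: NDUFA12, NDUFB4, NDUFB5, NDUFS1, NDUFS4, UQCRB and ndufa4l2b. NDUFB4, NDUFB5 and NDUFS1 were listed at 0 in all 12 libraries. Several of these encode subunits of complex I that every cell uses, so the entries say only how the genes are listed in the files.

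NDUFA8, a complex I subunit chosen after its values were seen, had 21.8 FPKM in replicate 1 of mutants at 7 dpf, against 0.386 to 1.78 FPKM in the other 11 libraries. SDHC, of complex II, had 2.52, 4.29 and 4.90 FPKM in mutants at 7 dpf, against 16.6, 2.01 and 14.2 FPKM in siblings, so that leaving out sibling replicate 2 alone made it a call (log2 change -1.89, adjusted p = 0.0266 in limma, -1.01 and adjusted p = 0.40 with all pools).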
